A study of Mus musculus with 4 samples.

Results

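The platelet-derived growth factor (PDGF) family of secreted ligands and their receptors was followed across the cells of late fetal mouse leg muscle. Members were taken by gene name, as the 4 ligand genes *Pdgfa*, *Pdgfb*, *Pdgfc* and *Pdgfd* and the 2 receptor genes *Pdgfra* and *Pdgfrb*, which are 6 of the 32285 genes counted. All 6 had unique molecular identifiers (UMIs, which mark single captured transcripts) in every library. Leg muscles of E18.5 fetuses, close to birth, were dissociated with trypsin and sequenced as single cells in droplets. Per the labels and the study's methods, 2 libraries were wild type (WT) and 2 were *SYISL* knockouts (KO), which lack a long non-coding transcript of the *Synpo2* locus, and all were littermates from matings of heterozygous mice. The knockout was not limited to a cell type, and the number of fetuses behind each library was not stated. The design text calls the libraries biological replicates, and p-values here measure only the spread between them.

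PDGF ligands act as dimers that bind and pair receptor tyrosine kinases on nearby cells. The ligands encoded by *Pdgfa* and *Pdgfc* act mainly through PDGFRα, whereas those encoded by *Pdgfb* and *Pdgfd* are best known as ligands of PDGFRβ. The ligands encoded by *Pdgfc* and *Pdgfd* carry an inhibitory CUB domain that proteases must remove before they can bind. In muscle, PDGFRα is the usual surface marker of fibro-adipogenic progenitors (FAPs), the connective tissue progenitors between fibres, and PDGFRβ marks pericytes and smooth muscle cells of vessel walls.

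The deposited matrices held 41741 cells, of which 36969 were kept (8515 and 8177 in WT, 9816 and 10461 in KO), with a median of 9118 to 11427 UMIs per kept cell. Libraries shared 21 to 41 cell barcodes in each pair, at most 0.430% of the smaller library. *SYISL* has no entry of that name among the counted genes, so the knockout was not checked at its target, and its host gene *Synpo2* was at 10.4 and 10.3 CPM (the usual depth-scaled unit, in which a gene's count is divided by the total count of the cells summed) in WT and 10.9 and 9.03 in KO. KO replicate 2 stood apart from the other libraries in sex-linked transcripts, with *Xist* at 1203 CPM against at most 0.0533 CPM and *Ddx3y* at 0.927 CPM against 99.5 to 108 CPM. Some of the genotype differences whose size turned on this library are also given without it. Cells were grouped by clustering in which the 6 PDGF genes were not used, and clusters were named from marker genes as "like" a cell type. Leg muscle as labelled held 6731 myogenic-like cells, in which all 12 myogenic markers were detected at a summed level of 3138 to 3497 CPM. The other classes were FAP-like (17139 cells), chondrocyte-like (3426), glial-like (1831), smooth muscle or pericyte-like (1747), endothelial-like (1343), tenocyte-like (1251), macrophage-like (1043) and mast-like cells (360), and an unnamed cluster of 1436 cells led by *Ccl11*, *Cldn1* and *Foxd1*. A cluster of 448 cells with mixed markers and 214 neutrophil-like cells were left out of the levels by class. The mixed cluster, with markers of myogenic cells and of FAPs, held 51 and 36 cells in WT and 120 and 241 in KO. Chondrocyte-like cells made up 7.75% and 12.5% of WT and 3.48% and 13.4% of KO cells.

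Levels are in CPM within a class and library, and the order of classes is a description with no test. Classes are said to differ in level only where their ranges over the 4 libraries did not overlap. Levels were not compared between genes, because transcript length was not taken into account.

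Among the ligands, *Pdgfa* was highest in myogenic-like cells, the precursors of muscle fibres, where it stood at 269 and 262 CPM in WT and 266 and 246 CPM in KO. Glial-like cells came next at a mean of 202 CPM (194 to 212), followed by smooth muscle or pericyte-like cells at 161 CPM (148 to 167). These 3 classes did not overlap one another or any lower class. Chondrocyte-like (65.8 CPM) and tenocyte-like cells (54.2 CPM) overlapped each other. FAP-like cells, the main holders of the receptor gene *Pdgfra*, were at 6.98 CPM (4.83 to 8.89) and overlapped mast-like (9.07 CPM, 1.02 to 14.1) and endothelial-like cells (12.1 CPM, 8.67 to 16.8) at the low end of the order. After each cell was thinned to 2000 UMIs, 39.1% of myogenic-like cells had a *Pdgfa* UMI, against 1.25% of FAP-like cells. The median depth before thinning was 8969 to 11401 UMIs in myogenic-like and 9094 to 11973.5 UMIs in FAP-like cells.

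*Pdgfb*, the ligand gene by which endothelium attracts pericytes, was highest in endothelial-like cells. It stood there at 200 and 218 CPM in WT and at 210 and 146 CPM in KO. Its level of 194 CPM over the 4 libraries was 9.51 times that of the next class, smooth muscle or pericyte-like cells at 20.4 CPM (13.9 to 24.3). Macrophage-like (12.8 CPM), glial-like (9.51 CPM) and myogenic-like cells (8.07 CPM) followed, and FAP-like, tenocyte-like and *Ccl11*-led cells stood at 0.482, 0.471 and 0.437 CPM. At 2000 UMIs per cell, 28.0% of endothelial-like cells and 0.122% of FAP-like cells had a *Pdgfb* UMI, with a median depth of 8663.5 to 9791 UMIs in endothelial-like cells before thinning.

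*Pdgfc* was highest in myogenic-like cells, at 80.4 and 77.4 CPM in WT and 70.6 and 65.2 CPM in KO. Chondrocyte-like cells followed at 54.6 CPM (48.4 to 63.6) and overlapped glial-like cells at 41.0 CPM (32.6 to 51.5). Tenocyte-like cells stood at 23.7 CPM and smooth muscle or pericyte-like cells at 12.6 CPM, and the remaining classes were at 8.15 CPM or less. A *Pdgfc* UMI was found in 13.1% of myogenic-like and 0.297% of endothelial-like cells at 2000 UMIs. *Pdgfa* and *Pdgfc* thus shared their highest class, and over 40 values of 10 classes in 4 libraries their log2(CPM + 1) levels had a Pearson r of 0.77, as a description over values that share libraries and classes.

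*Pdgfd* followed a different order, in which myogenic-like cells had the lowest mean at 1.94 CPM (1.20 to 2.79). They overlapped mast-like cells (4.91 CPM, 0 to 10.2). Endothelial-like cells were highest, at 243 and 188 CPM in WT and 179 and 176 CPM in KO. Tenocyte-like cells came next at 59.2 CPM (43.6 to 66.7) and overlapped FAP-like cells at 45.8 CPM (41.0 to 48.2). The *Ccl11*-led cluster (25.6 CPM) and chondrocyte-like cells (24.4 CPM) followed. At matched depth, 24.9% of endothelial-like, 7.24% of FAP-like and 0.365% of myogenic-like cells had a *Pdgfd* UMI.

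Both receptor genes were nearly absent from the cells that held most *Pdgfa* and *Pdgfc*. *Pdgfra* stood at 311 and 270 CPM in WT and at 300 and 264 CPM in KO in FAP-like cells, which overlapped the *Ccl11*-led cluster at 269 CPM (239 to 286). Chondrocyte-like cells (107 CPM, 100 to 112) and tenocyte-like cells (97.8 CPM, 86.9 to 107) formed a lower, overlapping pair. The 12 FAP markers, several of them collagen genes, summed to 27706 to 39078 CPM in chondrocyte-like and 25592 to 28044 CPM in tenocyte-like cells, beside 29018 to 33525 CPM in FAP-like cells and 28783 to 35457 CPM in the *Ccl11*-led cluster. Every remaining class was below 20 CPM on average, and myogenic-like cells were lowest at 1.77 CPM (1.47 to 2.04). A *Pdgfra* UMI was seen in 41.8% of FAP-like and 0.370% of myogenic-like cells at 2000 UMIs. *Pdgfrb* was highest in smooth muscle or pericyte-like cells, at 358 and 382 CPM in WT and 322 and 321 CPM in KO. Next came the *Ccl11*-led cluster at 75.3 CPM (67.3 to 85.9), and then chondrocyte-like (45.7 CPM), FAP-like (41.4 CPM) and tenocyte-like cells (36.7 CPM). Myogenic-like cells were lowest for this receptor gene too, at 0.985 CPM (0.734 to 1.37). At matched depth 48.9% of smooth muscle or pericyte-like and 0.310% of myogenic-like cells had a *Pdgfrb* UMI. The highest class of each of the 6 genes was the same in 30 of 30 comparisons with other clusterings and cell filters.

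**Figure D1:**
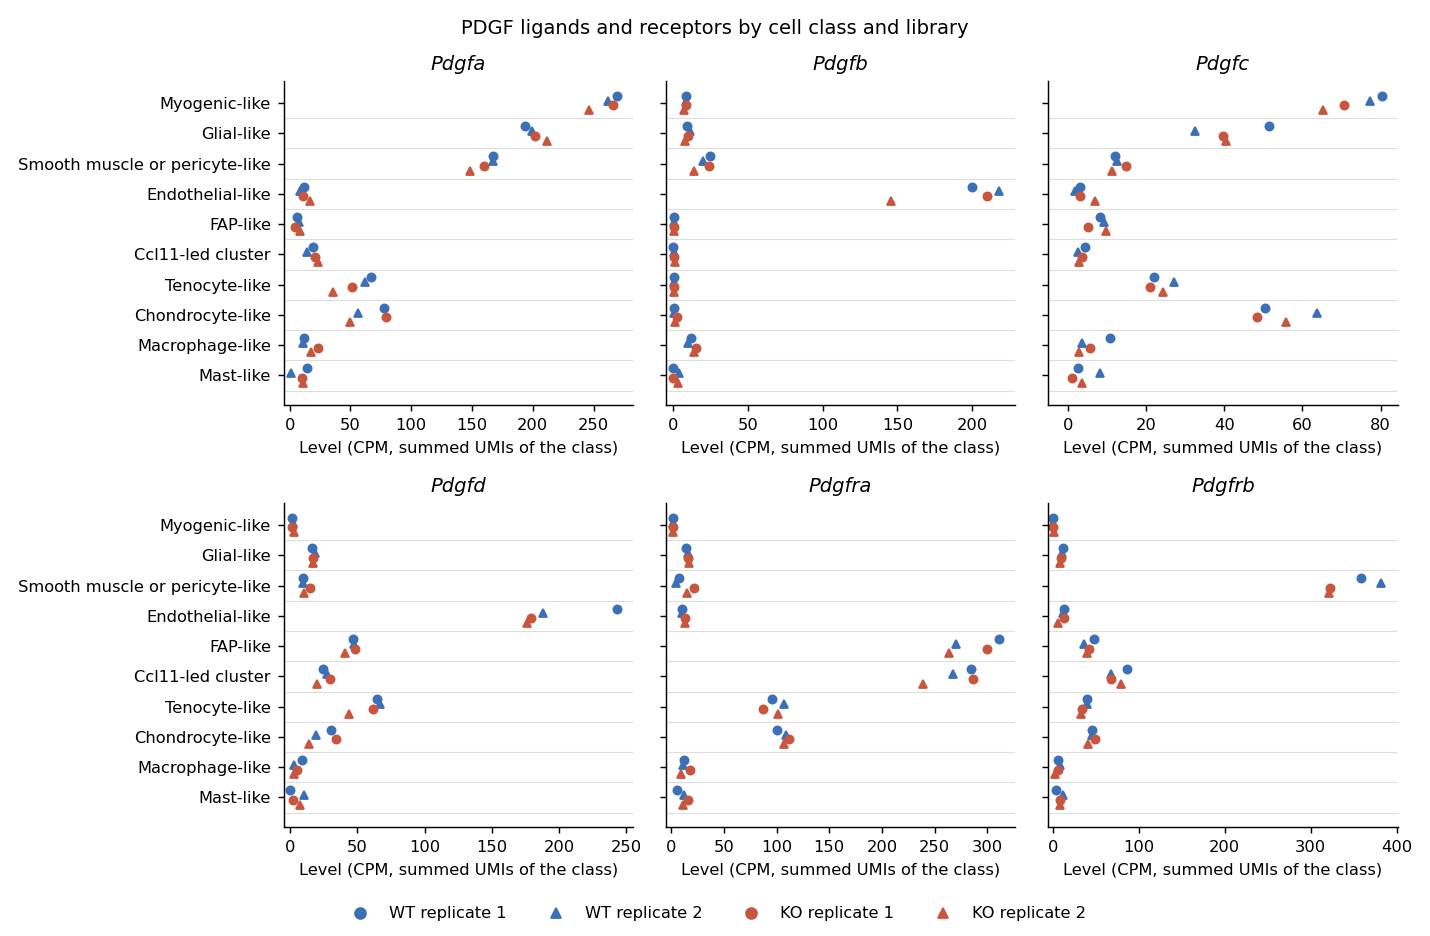
Level of the 6 PDGF genes (CPM, linear axis, 1 panel per gene) in 10 cell classes (rows), with 1 point per library. *Pdgfa* and *Pdgfc* are highest in myogenic-like cells, *Pdgfb* and *Pdgfd* in endothelial-like cells, *Pdgfra* in FAP-like cells and the *Ccl11*-led cluster, and *Pdgfrb* in smooth muscle or pericyte-like cells at 321 to 382 CPM.

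Since classes differ in cell number, the share of each gene's UMIs held by each class was computed beside the share of all UMIs held by that class. Myogenic-like cells held 58.7% of *Pdgfa* UMIs (55.3% and 56.5% in WT, 63.4% and 59.7% in KO) with 17.7% of all UMIs, and glial-like cells held a further 13.8%. FAP-like cells, with 47.3% of all UMIs, held 4.24% of those of *Pdgfa*. Endothelial-like cells held 65.6% of *Pdgfb* UMIs (60.8% to 68.8%) with 3.72% of all UMIs, followed by 13.2% in myogenic-like and 8.70% in smooth muscle or pericyte-like cells. Of the *Pdgfc* UMIs, 49.9% lay in myogenic-like cells and 17.4% in chondrocyte-like cells. Within the chondrocyte-like class, 2 sub-clusters of 755 and 318 cells with tendon markers held 47.0% of its *Pdgfc* UMIs, at 79.6 CPM (53.3 to 113), against 36.2 CPM (32.4 to 41.9) in cells with cartilage markers. The chondrocyte-like share of *Pdgfc* ran from 6.21% in KO replicate 1, the library with the fewest chondrocyte-like cells, to 25.5% in WT replicate 2.

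For *Pdgfd* and *Pdgfrb* the class with the highest level was not the class with most UMIs. FAP-like cells held 60.2% of *Pdgfd* UMIs (55.8% to 61.7%) against 20.2% in endothelial-like cells. They also held 43.0% of *Pdgfrb* UMIs (38.4% to 46.3%), above the 35.5% in smooth muscle or pericyte-like cells (31.6% to 37.2%), which held 4.68% of all UMIs. *Pdgfra* was held to 83.0% by FAP-like cells, to 6.59% by the *Ccl11*-led cluster and to 5.53% by chondrocyte-like cells.

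**Figure D2:**
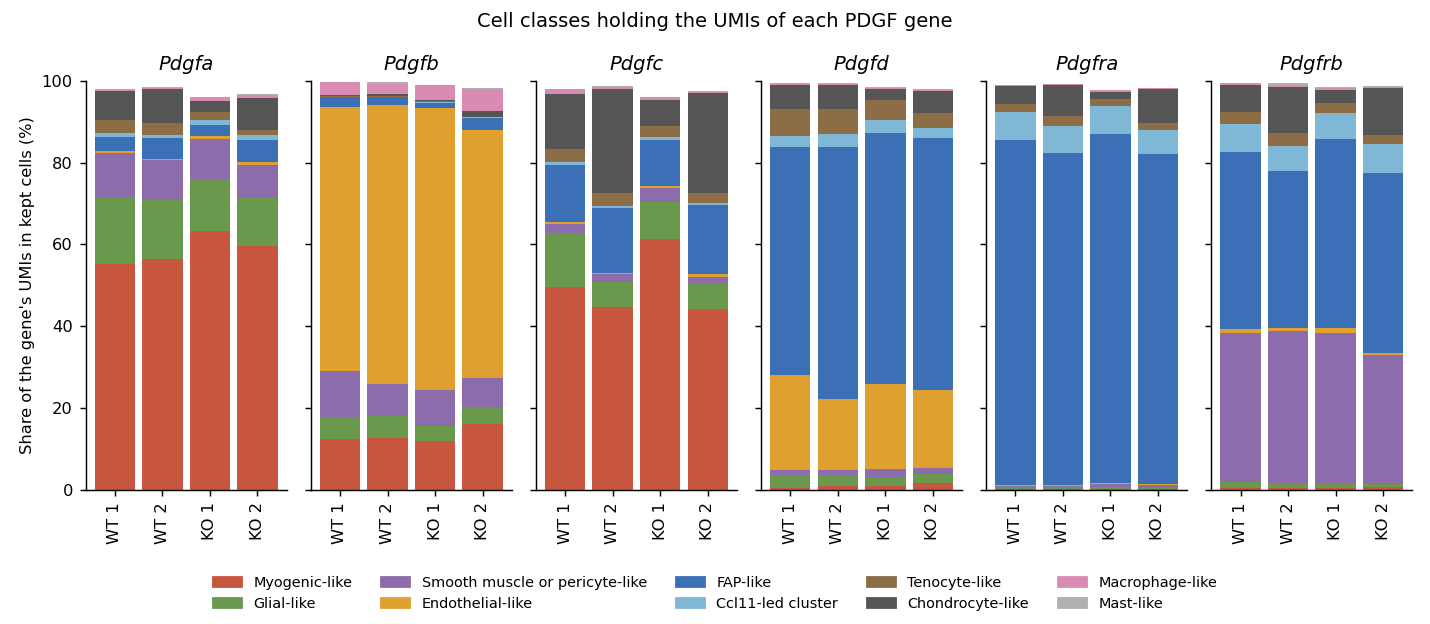
Share of each PDGF gene's UMIs (%, vertical axis) by cell class (colours), with 1 stacked bar per library. The part missing to 100% lies in the mixed cluster and in neutrophil-like cells. Myogenic-like cells hold the largest part of *Pdgfa* and *Pdgfc*, endothelial-like cells of *Pdgfb*, and FAP-like cells of *Pdgfd*, *Pdgfra* and *Pdgfrb*.

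Within myogenic-like cells, both ligand genes were lower in the differentiating stage. *Pdgfa* stood at 313, 312, 315 and 282 CPM (WT replicates 1 and 2, then KO replicates 1 and 2) in 3713 progenitor-like cells, which carry *Pax7*, *Myf5* and other early markers. In 1149 myoblast-like cells, with *Myog* and the fusion genes *Mymk* and *Mymx*, it stood at 104, 120, 101 and 108 CPM. The ratio of these stages was 2.83 on average and 2.60 to 3.12 by library. *Pdgfc* showed a ratio of 2.07 (1.55 to 2.70), from 87.0 CPM in progenitor-like to 42.1 CPM in myoblast-like cells. Cycling cells were close to the progenitor-like cells for *Pdgfa* (290 CPM) and at 73.9 CPM for *Pdgfc*. The myotube-like cells numbered 91 in all, and their *Pdgfc* level ran from 9.66 to 58.2 CPM.

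Within endothelial-like cells, the arterial-like sub-cluster of 159 cells, led by *Gkn3*, *Gja5* and *Bmx*, had the highest mean level of both ligand genes. *Pdgfd* was at 709, 521, 446 and 575 CPM there, 3.76 times its level in cycling endothelial-like cells (3.12 to 4.27 by library). *Pdgfb* was at 300, 393, 317 and 225 CPM, 1.57 times that in cycling cells (1.37 to 2.11). The largest sub-cluster, 585 cells led by *Gmpr* and left unnamed, was at 190 CPM for *Pdgfb* and 159 CPM for *Pdgfd*. In single cells at 2000 UMIs, 7.47% of endothelial-like cells had UMIs of both ligands, and *Pdgfd* was seen in 26.6% of cells with and 24.3% of cells without a *Pdgfb* UMI.

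Within FAP-like cells, the ligand and receptor genes were highest in different sub-clusters. *Pdgfd* was at 114, 103, 94.8 and 105 CPM in 4170 adventitial-like cells (*Pi16*, *Ly6a*, *Dpp4*), and at 21.2, 20.4, 24.4 and 12.9 CPM in 8289 cells that carried 4 of 6 markers of a *Smoc2* type. The ratio was 5.41 (3.89 to 8.14). The 10 leading genes of the *Smoc2*-type sub-cluster also included the muscle genes *Tnnc2*, *Myl1*, *Acta1*, *Mylpf* and *Tnnt3*. *Pdgfra* ran the other way, at 339 CPM in the *Smoc2*-type and 224 CPM in adventitial-like cells, with a ratio of 1.51 (1.47 to 1.58). *Pdgfrb* had a ratio of 1.39 in the same direction (1.36 to 1.42). An unnamed sub-cluster of 1494 cells led by *Col22a1* held the highest *Pdgfc* level among FAP-like cells, at 35.7 CPM, against 1.17 CPM in the *Smoc2* type.

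In the vessel wall classes, pericyte-like and smooth muscle-like cells were set apart by the ligands and by *Pdgfrb*. *Pdgfrb* was at 525, 507, 514 and 453 CPM in 591 pericyte-like cells and at 268, 315, 238 and 238 CPM in smooth muscle-like cells, a ratio of 1.90 (1.61 to 2.16). *Pdgfa* was 3.10 times higher in smooth muscle-like than in pericyte-like cells (2.59 to 3.62), at 234 and 76.2 CPM. *Pdgfb* was at 34.6 CPM in smooth muscle-like and 0.787 CPM in pericyte-like cells, and *Pdgfd* at 35.0 and 0.391 CPM. Among glial-like cells, an unnamed sub-cluster led by *Syt1* had the highest mean for *Pdgfa* (292 CPM), *Pdgfb* (38.3 CPM) and *Pdgfd* (50.1 CPM), and one led by *Ncmap*, *Gldn* and *Pmp2*, genes of myelinating Schwann cells, had that for *Pdgfc* (63.9 CPM). Among chondrocyte-like cells, *Pdgfra* and *Pdgfrb* were at 176 and 84.4 CPM in an *Erc2*-led sub-cluster, and *Pdgfra* was at 87.9 CPM in cells with cartilage markers.

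**Figure D3:**
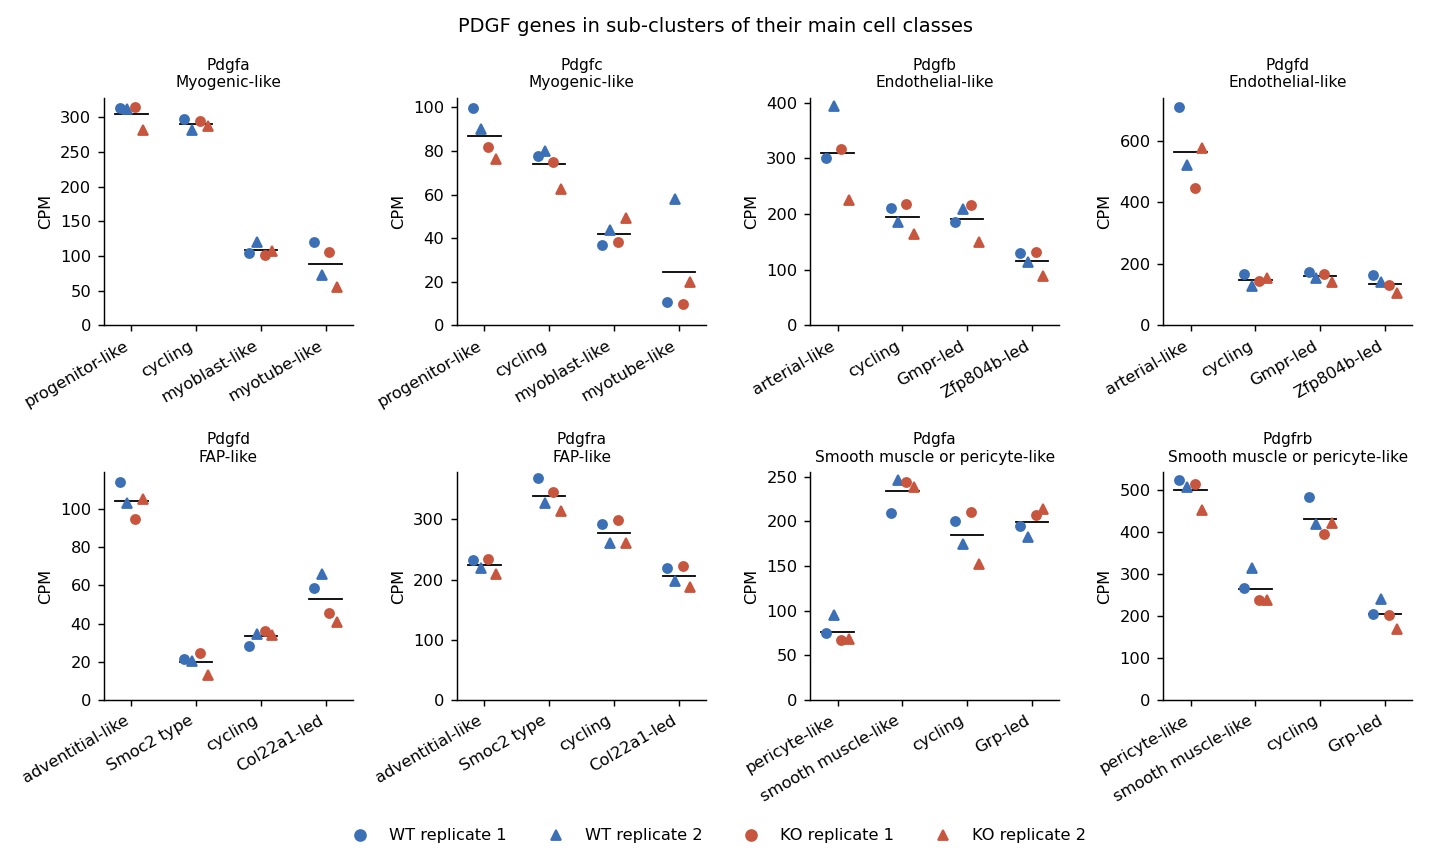
Level (CPM, linear axis from 0) of PDGF genes in sub-clusters of their main classes, with 1 point per library and the mean as a black line. *Pdgfa* and *Pdgfc* are lower in myoblast-like than in progenitor-like cells, *Pdgfd* stands out in arterial-like and adventitial-like cells, and *Pdgfrb* is at 453 to 525 CPM in pericyte-like cells against 238 to 315 CPM in smooth muscle-like cells.

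To see which cells held both a ligand and a receptor gene, cells thinned to 2000 UMIs were counted. Smooth muscle or pericyte-like cells had the highest share with UMIs of both, at 11.9% (10.6% and 14.7% in WT, 12.4% and 10.4% in KO). Tenocyte-like cells followed at 5.36%, the *Ccl11*-led cluster at 4.53%, chondrocyte-like cells at 4.45% and FAP-like cells at 4.04%. In myogenic-like cells 47.6% had a UMI of a ligand, 0.655% of a receptor and 0.342% of both. In smooth muscle or pericyte-like cells *Pdgfrb* was seen in 41.3% of cells with a *Pdgfa* UMI and in 51.2% of cells without. *Pdgfra* and *Pdgfrb* were seen together in 3.76% of FAP-like cells. These shares count cells with a UMI at this depth and not cells that express a gene.

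Most *Pdgfra* UMIs of some classes with a low level lay in small sub-clusters. Those in smooth muscle or pericyte-like and glial-like cells were led by markers of a different class. In smooth muscle or pericyte-like cells 193 of 229 *Pdgfra* UMIs (84.3%) lay in 93 cells led by *Kera*, *Clec3b* and *Smoc2*, with *Lum* and *Pdgfra* itself among the leading genes. In glial-like cells 290 of 330 lay in 122 cells led by *Tnmd* and *Dcn*. In endothelial-like cells 130 of 173 lay in 131 cells led by *Zfp804b* and *Rgs5*. This sub-cluster had too few leading markers of other classes to be removed below. For each 1000 UMIs of *Dcn*, the decorin gene of connective tissue cells, there were 123 *Pdgfra* UMIs in FAP-like, 123 in glial-like, 107 in endothelial-like and 86.0 in smooth muscle or pericyte-like cells. For each 1000 UMIs of *Lum*, the lumican gene, there were 351, 365, 299 and 276 in the same order. The collagen genes gave uneven ratios, with 38.4, 4.49, 21.9 and 16.5 *Pdgfra* UMIs for each 1000 UMIs of *Col1a1* and 28.3, 3.65, 20.9 and 9.19 for *Col3a1*. After sub-clusters with at least 3 leading markers of other classes were removed, a step chosen after seeing the data, *Pdgfra* was at 1.54 to 3.53 CPM in glial-like and 1.34 to 3.97 CPM in smooth muscle or pericyte-like cells.

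The effect of *SYISL* loss on the PDGF genes was tested on UMIs summed per library and class, with the quasi-likelihood test of edgeR across all genes. No PDGF gene changed past an adjusted p of 0.05 in a class where it was at 20 CPM or more. That limit left 25 pairs of a gene and a class in 8 classes, with log2 fold changes (KO over WT) from -0.53 to 0.08 and a median of -0.07, and the smallest adjusted p was 0.718 by edgeR. At an unadjusted p under 0.05 there were 2 pairs, and DESeq2 called 0. Over all genes in the 8 classes, edgeR called 0.0203% at the adjusted and 3.73% at the unadjusted threshold, and DESeq2 called 0.0226%. In 23 of the 25 pairs the log2 fold change was below 0, but without KO replicate 2 this held for 12 of 25 and without WT replicate 1 for 14 of 25. Such fits leave 1 library in a group, which is assumed to vary like the pair in the other group. Both KO libraries lay on one side of both WT libraries in 8 pairs (1 higher, 7 lower), against 31.7% of all genes in these classes.

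**Figure D4:**
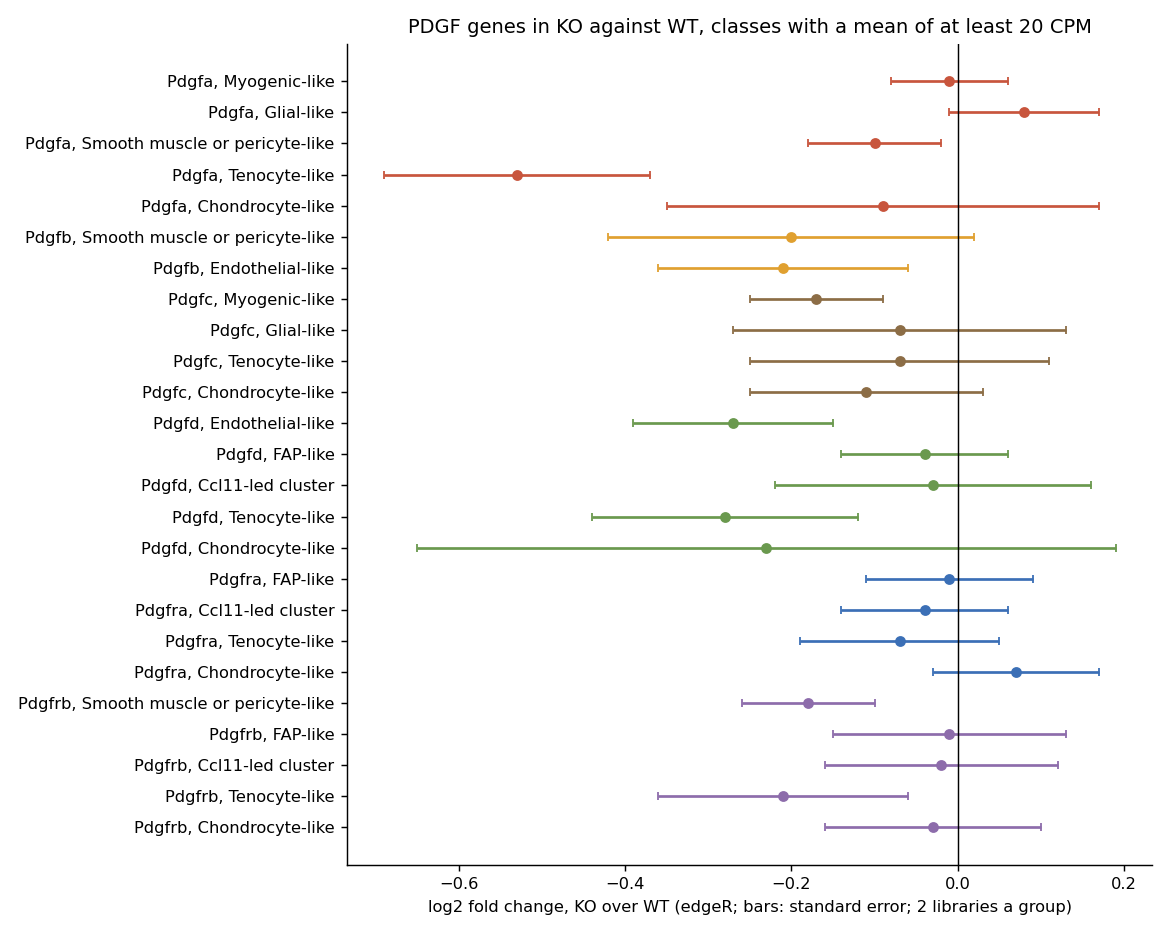
Log2 fold change (KO over WT, horizontal axis) of PDGF genes in the 25 pairs of gene and class with a mean of at least 20 CPM; points are edgeR estimates from 2 libraries a group, bars are standard errors and colours mark genes. Estimates run from -0.53 for *Pdgfa* in tenocyte-like cells to 0.08 for *Pdgfa* in glial-like cells.

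In myogenic-like cells the *Pdgfa* levels of the genotypes overlapped (log2 fold change -0.01, SE 0.07, adjusted p = 0.986 by edgeR). *Pdgfc*, given above, was lower in both KO than in both WT libraries, at a log2 change of -0.17 (SE 0.08) and an edgeR adjusted p of 0.967. For all genes of this class the shares were 0% called, 3.65% at an unadjusted p under 0.05 and 33.6% with the groups apart. In progenitor-like cells *Pdgfc* was at 99.8 and 89.9 CPM in WT and 82.0 and 76.2 CPM in KO, and the estimate was -0.22 (SE 0.10, edgeR adjusted p = 0.983). In myoblast-like cells its estimate was 0.12 (SE 0.16), and that of *Pdgfa* was -0.09 (SE 0.10). Of the 6 pairs of these ligand genes with the progenitor-like, cycling and myoblast-like stages, edgeR called 0, at an unadjusted p under 0.05 there were 0, and DESeq2 called 0. Over all genes in the 3 stages, edgeR called 0.00838% at the adjusted and 4.14% at the unadjusted threshold.

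In FAP-like cells both receptor genes and *Pdgfd* overlapped between genotypes. Their log2 fold changes were -0.01 for *Pdgfra* (SE 0.10), -0.01 for *Pdgfrb* (SE 0.14) and -0.04 for *Pdgfd* (SE 0.10), each with an edgeR adjusted p of 1.00. The background in this class was 0% called, 2.61% at the unadjusted threshold and 29.9% apart. In the *Ccl11*-led cluster the groups overlapped too, with *Pdgfra* at 284 and 267 CPM in WT and 286 and 239 CPM in KO (log2 fold change -0.04, SE 0.10), against a background of 0% called, 5.18% unadjusted and 33.6% apart. An interaction term compared the KO effect in myogenic-like cells with that in FAP-like cells. The differences (myogenic-like minus FAP-like) were 0.01 for *Pdgfa*, 0.09 for *Pdgfb*, 0.05 for *Pdgfc*, 0.48 for *Pdgfd* (SE 0.37), -0.07 for *Pdgfra* and 0.24 for *Pdgfrb* on the log2 scale. None of the 6 passed in edgeR (adjusted p = 1.00 for each), 0 had an unadjusted p under 0.05 and DESeq2 called 0, against 0% called and 2.91% unadjusted over all genes.

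In endothelial-like cells both ligand genes had estimates below 0 that did not pass the test. *Pdgfd* was lower in both KO libraries (log2 fold change -0.27, SE 0.12, edgeR adjusted p = 0.999). Its estimate was -0.06 without WT replicate 1 and -0.46 without WT replicate 2. *Pdgfb* gave -0.21 on that scale (SE 0.15, adjusted p = 0.999 by edgeR), with KO replicate 1 between the WT libraries and KO replicate 2 below both. Its value turned on the KO libraries, at 0.02 without KO replicate 2 and -0.51 without KO replicate 1 (edgeR adjusted p = 0.00970). The latter fit has KO replicate 2, the library that stood apart, as its lone KO sample and takes the spread from the WT pair. In this class 0.0170% of all genes were called, 3.59% passed unadjusted and 30.5% were apart. In smooth muscle or pericyte-like cells *Pdgfrb*, the receptor gene for the endothelial ligands, had a log2 fold change of -0.18 (SE 0.08), an unadjusted p of 0.0282 and an adjusted p of 0.861 by edgeR, and the KO libraries lay below the WT libraries. *Pdgfa* in these cells was at 167 and 167 CPM in WT and 160 and 148 CPM in KO (log2 fold change -0.10, SE 0.08). The sign of this estimate turned once sub-clusters led by another class were removed. The 12 markers of the class itself also summed lower in KO, at 15515 and 14495 CPM in WT and 14077 and 13552 CPM in KO. Whether cell makeup had a part in the *Pdgfrb* value was not tested. The background in this class was 0.143% called, 5.44% unadjusted and 34.2% apart, against 0, 1 and 2 of the 3 genes at 20 CPM or more.

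Tenocyte-like cells gave the estimate farthest from 0. *Pdgfa* was at 67.2 and 62.2 CPM in WT and at 51.6 and 35.6 CPM in KO, a log2 fold change of -0.53 (SE 0.16) with an unadjusted p of 0.00586 and an adjusted p of 0.718 by edgeR. Without KO replicate 2 the estimate was -0.29, and other clusterings moved it to between -0.13 and -0.34. With the replicate number as a block it was -0.54 with an edgeR adjusted p of 0.0427. *Pdgfd* (-0.28, SE 0.16) and *Pdgfrb* (-0.21, SE 0.15) were lower in both KO libraries of this class too, at -0.05 and -0.16 without KO replicate 2, whereas *Pdgfc* and *Pdgfra* overlapped at -0.07 each. The background in tenocyte-like cells was 0.0173% called, 5.11% unadjusted and 35.3% apart, against 0, 1 and 3 of these 5 genes.

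The remaining classes showed overlap for all but 1 pair. In chondrocyte-like cells the 5 genes overlapped, with estimates from -0.23 for *Pdgfd* (SE 0.42) to 0.07 for *Pdgfra* (SE 0.10), beside a background of 0% called, 1.49% unadjusted and 26.2% apart. These estimates cover a mixture of cells. Sub-clusters with tendon markers had 31.1% of the class's UMIs. They held 55.5% of its *Pdgfd*, 43.7% of its *Pdgfa*, 38.2% of its *Pdgfrb* and 25.0% of its *Pdgfra* UMIs. In glial-like cells *Pdgfa* was at 194 and 199 CPM in WT and 202 and 212 CPM in KO (log2 fold change 0.08, SE 0.09), and *Pdgfc* had an estimate of -0.07 (SE 0.20), beside 0% called, 3.67% unadjusted and 31.9% apart.

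One change past the threshold concerned a receptor gene at a low level, and was singled out after its values were seen. In smooth muscle or pericyte-like cells *Pdgfra* was at 6.94 and 4.96 CPM in WT and at 22.1 and 14.6 CPM in KO, and the log2 estimate was 1.63 (SE 0.27) with an adjusted p of 0.0289 by edgeR. Without KO replicate 2 the estimate was 1.88, and without KO replicate 1 it was 1.30. In this class 0.143% of all genes were called, 5.44% passed unadjusted and 34.2% were apart. DESeq2 gave the same estimate with an adjusted p of 0.0817, edgeR gave 0.208 after removal of cells called as doublets, and a looser cell filter gave 1.03 with an edgeR adjusted p of 0.258. The *Kera*-led sub-cluster described above held 15 and 8 cells in WT and 41 and 29 cells in KO, and within it *Pdgfra* was at 98.8, 103, 135 and 119 CPM in the same order. The 12 FAP markers were all at 1 CPM or more in the class, with a summed level of 3175 and 2609 CPM in WT and 4713 and 3825 CPM in KO. *Dcn* was at 101 and 52.2 CPM in WT and 244 and 167 CPM in KO. Without the sub-clusters led by other classes, *Pdgfra* had 6, 6, 16 and 6 UMIs in the 4 libraries and was too low to be tested.

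**Figure D5:**
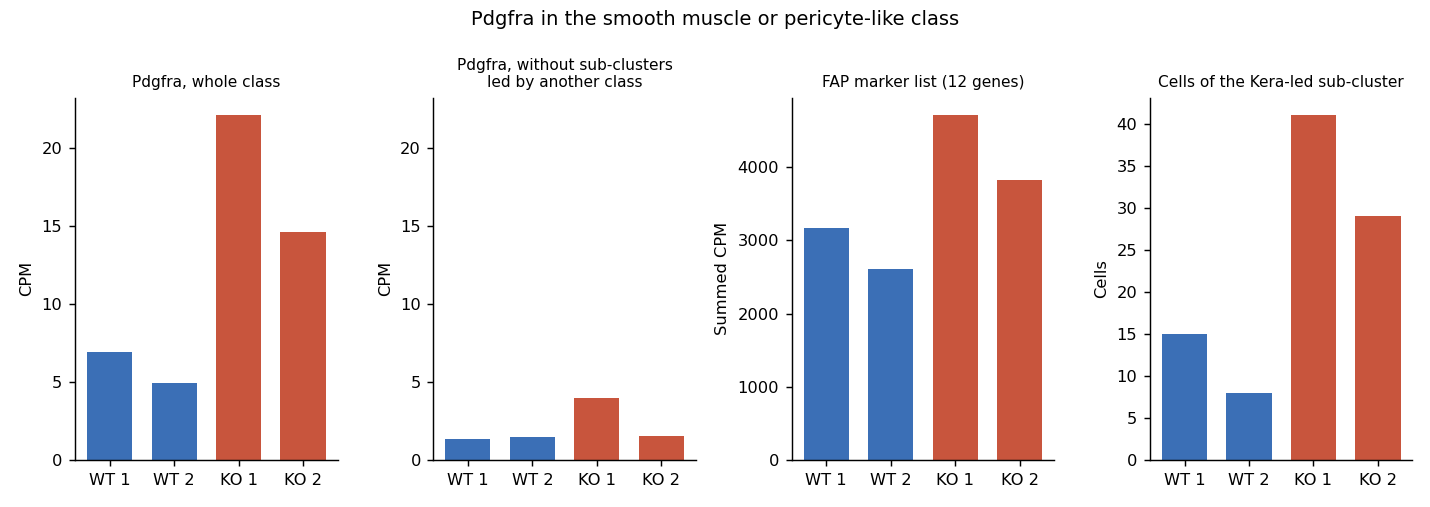
Smooth muscle or pericyte-like cells by library (bars; WT in blue, KO in red; axes from 0): *Pdgfra* (CPM) in the whole class and without sub-clusters led by another class, the summed level of the FAP marker list (CPM), and the number of cells in the *Kera*-led sub-cluster. *Pdgfra* is at 22.1 and 14.6 CPM in KO in the whole class and at 3.97 and 1.55 CPM without those sub-clusters.

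Over all kept cells together, in which cell makeup and level per cell cannot be told apart, no PDGF gene was called. *Pdgfc* was at 27.4 and 27.8 CPM in WT and 22.6 and 26.7 CPM in KO, with a log2 fold change of -0.12 (SE 0.10). The part of the chondrocyte-like share in this value was not tested. The estimates of the other 5 genes lay between -0.11 and 0.05, and the smallest edgeR adjusted p of the 6 was 0.946. DESeq2 called 0 and 0 had an unadjusted p under 0.05, beside 0% called, 4.71% unadjusted and 35.5% apart over all genes.

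Shares of cells with a UMI, at 2000 UMIs per cell, were set against each other in an exact permutation test (two-sided, over the 4 libraries) that cannot give a p below 0.333. *Pdgfa* was seen in 40.8% and 40.0% of myogenic-like cells in WT and in 39.1% and 36.5% in KO (difference -2.59 percentage points, exact p = 0.333, and -1.30 without KO replicate 2). *Pdgfrb* was seen in 49.8% and 52.2% of smooth muscle or pericyte-like cells in WT and in 47.9% and 45.6% in KO (difference -4.22, exact p = 0.333, and -3.10 without KO replicate 2). *Pdgfra* in FAP-like cells overlapped, at 45.3% and 40.5% in WT and 43.5% and 37.9% in KO. Without thinning these 3 shares averaged 83.0%, 89.1% and 88.2%. The adjusted p of the permutation test was 1.00 for every share tested.

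PDGF signalling also needs proteases that activate the ligands, and adaptors and brakes inside the receiving cell. Lists of such genes were read from the same fits. Genes that bind the ligands, and related receptor kinases with their own ligands, were listed too, which made 42 genes in 5 lists. In each of the 8 classes 38 to 41 of them were tested, and edgeR called 0 and DESeq2 called 0 in every class. *Plat*, the tissue plasminogen activator that cleaves the *Pdgfc* product, was highest in smooth muscle or pericyte-like cells (104 CPM), and *Plau*, the urokinase that acts on the *Pdgfd* product, in macrophage-like cells (84.4 CPM). *Furin*, a convertase of PDGF precursors, was highest in mast-like cells (422 CPM), and *Nrp1*, a co-receptor, in the *Ccl11*-led cluster (602 CPM) and endothelial-like cells (547 CPM). *Stat3* was highest in tenocyte-like cells (634 CPM), and *Lrp1* overlapped between tenocyte-like (175 CPM) and FAP-like cells (173 CPM). At an unadjusted p under 0.05, FAP-like cells had *Socs1* (log2 fold change 0.41, SE 0.10) and *Socs3* (0.35, SE 0.08) above 0, each with an edgeR adjusted p of 1.00, and *Nck2*, an adaptor, at -0.20. *Socs1* and *Socs3* encode cytokine-induced brakes of kinase signalling. *Socs1* was at 0.34 in myogenic-like and 0.51 in tenocyte-like cells, and *Socs3* at 0.31 in smooth muscle or pericyte-like cells and 0.28 in the *Ccl11*-led cluster, each at an unadjusted p under 0.05. The remaining genes at that threshold were *Nrp1* in myogenic-like cells (0.46), *Plat* in chondrocyte-like cells (0.54), *Grb2* and *Ptpn2* in the *Ccl11*-led cluster (0.26 each) and *Csf1r* in smooth muscle or pericyte-like cells (-0.58). These were 12 of 317 tests of a listed gene in a class, or 3.79%, beside 3.73% over all genes in the 8 classes. The 7 genes listed as brakes were *Cbl*, *Cblb*, *Ptpn1*, *Ptpn2*, *Ptprj*, *Socs1* and *Socs3*. In FAP-like cells they ran from -0.09 for *Cblb* and -0.01 for *Cbl* to 0.41 for *Socs1*. Their median log2 fold change was 0.21 in FAP-like, 0.16 in endothelial-like, 0.11 in *Ccl11*-led and 0.10 in myogenic-like cells. In glial-like (0.03), tenocyte-like (0.01), chondrocyte-like and smooth muscle or pericyte-like cells (-0.04 each) it was closer to 0, beside -0.0038 to 0.0025 over all genes, and the list as a whole was not tested.

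The 6 genes lie apart in the genome (GRCm38). *Pdgfa* is at chr5:138976014-138997370 and *Pdgfra* at chr5:75152292-75198215, on opposite strands of the same chromosome. *Pdgfb* is at chr15:79995874-80014977, *Pdgfc* at chr3:81036416-81214040, *Pdgfd* at chr9:6168584-6378850 and *Pdgfrb* at chr18:61045150-61085061. Each receptor gene lies near a related receptor tyrosine kinase gene. *Kit* begins 377 kb downstream of *Pdgfra* and *Kdr* 276 kb beyond it, and *Csf1r* lies 15.5 kb from *Pdgfrb*. These neighbours had other highest classes, with *Kit* at 635 CPM in mast-like, *Kdr* at 515 CPM in endothelial-like and *Csf1r* at 374 CPM in macrophage-like cells. Each was among the markers used to name that class, so its highest class is not an independent result. *Csf1r* was at 9.71 CPM in smooth muscle or pericyte-like cells, where *Pdgfrb* was highest. The antisense gene *6330403L08Rik* overlaps the start of *Pdgfa* and was at 4.18 CPM in myogenic-like cells, and *Gm16000* overlaps *Pdgfc* at 3.27 CPM there. How strand entered the counting was not given in the sources used here, so reads of such pairs may not be separable.

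Genes with the most similar pattern to each member were found by the Pearson correlation of log2(CPM + 1) over 40 values (10 classes in 4 libraries, which share libraries and depth) among 10137 genes, as a description. *Pdgfra* was nearest to *Dcn* (r = 0.985), *Igfbp6* (0.967) and *Tmed3* (0.959), and *Pdgfrb* was nearest to *Dtx3* (0.921), with *Cacna1c* (0.896) also among its nearest genes. For the endothelial ligand genes the nearest were *Sypl* (0.916), *Afap1l1* (0.896) and *Lrch1* (0.891) for *Pdgfb*, and *Bvht* (0.918), *Rnf152* (0.906) and *Palm* (0.899) for *Pdgfd*. *Ipo7* was nearest to both *Pdgfa* (0.859) and *Pdgfc* (0.892). Between the receptor genes r was 0.56, and between *Pdgfb* and *Pdgfra* it was -0.62.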

How the data were processed

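The authors aligned reads to mm10 with Cell Ranger 7.2.0 and deposited, for each gene in each cell, the raw count of UMIs without normalisation. The study's limits were applied to cells (1000 to 6000 genes, 1000 to 25000 UMIs, mitochondrial share under 8%). Doublets were removed only in an alternative, where Scrublet marked 1.65% to 2.56% of kept cells per library. Leiden clustering (scanpy 1.11.5, resolution 0.3, 3000 variable genes without the PDGF genes, 30 components, 20 neighbours) was done with no batch step. Clusters were named from marker lists by a rule set after the data were seen: at least 3 markers, making up at least 50% of the list, at 2-fold over other cells, or, for FAPs, 3 markers at 25% of the highest cluster with no other list having as many markers at 2-fold, a condition that left the *Ccl11*-led cluster unnamed. Sub-clusters needed 3 markers, over 50% of the list, at 1.5-fold. Rebuilt names may differ from those of the study.

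UMIs summed per library and class were tested with edgeR 4.0.16 in R 4.3.3 (quasi-likelihood, TMM, filterByExpr, Benjamini-Hochberg adjustment over all genes, threshold 0.05) in classes with at least 50 cells in every library and stages with at least 20. The SE was obtained from the F statistic. DESeq2 1.42.0 was an alternative. The script was tested on simulated data with known changes. Deposited libraries held 109653824 to 126257094 UMIs. Genes named are the 6 members, the pathway list, genome neighbours, the 3 genes most alike to each member, leading genes of clusters and library checks, and 1 gene that the rule named is not reported here. The members and lists were chosen with earlier results of these data known. Coordinates are those of GENCODE on GRCm38, the build also called mm10.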

Additional observations from a re-analysis of the deposited data

How the results depend on the processing

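Over 66 results and 655 alternative values, the counts of called PDGF genes stayed at 0 except under the replicate block and without KO replicate 1, where 1 of 25 pairs of gene and class was called. These were *Pdgfa* in tenocyte-like cells (-0.54, edgeR adjusted p = 0.0427) and *Pdgfb* in endothelial-like cells (-0.51, adjusted p = 0.00970), so this count ran from 0 to 1 without each library. The latter fit holds KO replicate 2 as its lone KO library and takes the spread from the WT pair. The labels name no batch shared by libraries of the same replicate number, and only 2 such pairs exist. Same-numbered libraries deviated together with correlations of 0.194 in FAP-like cells, 0.0695 in myogenic-like cells and 0.191 over all kept cells. These values cannot decide whether the libraries were paired, so the main fits used no block. The block also moved *Pdgfrb* in FAP-like cells to 0.01 and changed no other call. With centred expression and with the looser filter 22 pairs could be compared, and 12 once sub-clusters led by another class were removed.

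Some log2 fold changes turned sign. *Pdgfrb* was at 0.0024 in FAP-like cells at resolution 1, at 0.08 in chondrocyte-like cells with the looser filter and at 0.04 in tenocyte-like cells both with expression centred and with members among the variable genes. *Pdgfc* in chondrocyte-like cells was at 0.28 and 0.25 under those clusterings. *Pdgfa* was at 9.1e-06 in myogenic-like cells with no gene filter, and at 0.01 in smooth muscle or pericyte-like cells once sub-clusters led by another class were removed. With Scrublet doublets removed, *Pdgfb* over all cells was at 0.01 and the *Pdgfra* interaction at 0.17. The cause was not tested.

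Leaving out 1 library turned the sign of 32 results. For *Pdgfa* the ranges were -0.42 to 0.27 (chondrocyte-like), -0.05 to 0.03 (myogenic-like), -0.08 to 0.04 (progenitor-like) and -0.03 to 0.13 (all cells). For *Pdgfb* they were -0.51 to 0.02 (endothelial-like), -0.64 to 0.12 (smooth muscle or pericyte-like) and -0.42 to 0.32 (all cells). *Pdgfc* ran from -0.24 to 0.02 (chondrocyte-like), -0.35 to 0.31 (glial-like), -0.09 to 0.31 (myoblast-like), -0.21 to 0.07 (tenocyte-like) and -0.25 to 0.01 (all cells). *Pdgfd* ran from -0.33 to 0.23 (*Ccl11*-led), -0.84 to 0.47 (chondrocyte-like), -0.16 to 0.07 (FAP-like) and -0.24 to 0.07 (all cells). *Pdgfra* ran from -0.16 to 0.08 (*Ccl11*-led), -0.11 to 0.11 (FAP-like), -0.18 to 0.03 (tenocyte-like) and -0.07 to 0.10 (all cells). *Pdgfrb* ran from -0.20 to 0.18 (*Ccl11*-led), -0.14 to 0.12 (chondrocyte-like), -0.21 to 0.23 (FAP-like) and -0.22 to 0.01 (all cells). Interactions ran from -0.42 to 0.54 (*Pdgfa*), -0.22 to 0.37 (*Pdgfb*), -0.41 to 0.59 (*Pdgfc*), -0.10 to 0.95 (*Pdgfd*), -0.32 to 0.19 (*Pdgfra*) and -0.34 to 0.67 (*Pdgfrb*). Shares of cells with a UMI differed by -7.9 to 4.4 percentage points for *Pdgfd* in endothelial-like and by -5.0 to 0.6 for *Pdgfra* in FAP-like cells. The called *Pdgfra* value in smooth muscle or pericyte-like cells ran from 1.30 to 1.91.

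Levels in the highest classes moved by less than the spread between libraries, except *Pdgfa* in myogenic-like cells, at 244 CPM with the looser filter. Shares of UMIs moved more, since classes gained or lost cells. With the looser filter the share of *Pdgfb* in endothelial-like cells was 77.0%, and FAP-like cells held 54.6% of *Pdgfd*, 88.2% of *Pdgfra* and 47.9% of *Pdgfrb*. At resolution 1 the FAP-like shares were 56.5%, 75.3% and 38.8%, with members among the variable genes 52.0%, 77.4% and 39.4%, and with expression centred the *Pdgfd* share was 55.3%.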

Other observations

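Levels of the related receptor kinase genes *Kit* and *Csf1r* and of their ligand genes were read in the same classes. *Kit* and *Csf1r* were among the markers that named mast-like and macrophage-like cells. Their highest classes are therefore not an independent result. *Kitl*, the ligand gene of the KIT receptor, was highest in endothelial-like cells (475 ± 21.8 CPM, SD over 4 libraries) and then in smooth muscle or pericyte-like cells (294 ± 20.0 CPM), whereas *Kit* was highest in mast-like cells (635 ± 111 CPM) and at 62.3 ± 11.9 CPM in endothelial-like cells. *Csf1*, the ligand gene of the CSF1 receptor, was highest in mast-like cells (115 ± 22.1 CPM) and at 47.8 ± 0.933 CPM in FAP-like cells, and *Csf1r* was at 374 ± 42.0 CPM in macrophage-like cells. *Pdgfrl*, which encodes a receptor-like protein without a kinase, was highest in chondrocyte-like cells (202 ± 34.9 CPM).

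The 214 neutrophil-like cells, left out above, numbered 104 and 60 in WT and 25 in each KO library. They held 45 *Pdgfa*, 45 *Pdgfra* and 1 *Pdgfb* UMIs in all. WT replicate 1 alone held 35 of those of *Pdgfa* and 22 of those of *Pdgfra*.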
